A study of Mus musculus with 6 samples.

Results

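Ido1, Ifi202b and Serpina3g are interferon-induced genes whose products act inside the cell, and they were followed here in the untreated colon of mice with and without Pum2, an RNA-binding protein of the PUF family. They were selected by their symbol from a table of 69 rows for 68 genes, as the interferon-induced genes that are neither GTPases, chemokines nor antigen-processing genes. All 3 members were found. The question was which genes differ before any colitis is caused. The groups were 3 WT mice and 3 Pum2-/- mice, with RNA-seq of colon tissue and 1 library for each sample. The labels do not spell out that the samples are separate mice, as is taken here, so spreads are those between these samples. Pum2-/- mice lack Pum2 in the whole body and were kept on the FVB inbred background, as were the WT mice. Both groups were untreated and had not received DSS, the sulfated polymer used elsewhere in the study to cause colitis. The study's methods give an age range and male sex for the mice of the colitis experiment, which had untreated controls, and do not say whether the sequenced colons came from those controls.

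Interferons bind receptors on the cell surface and activate transcription factors, which enter the nucleus and switch on a large set of defence genes. The GAS element and the ISRE are short DNA motifs in the promoters of such genes through which they are switched on. In the gut, these genes are raised in the epithelium and in immune cells during infection and colitis. Ido1 encodes indoleamine dioxygenase, the rate-limiting enzyme that breaks tryptophan down to kynurenine and thereby restrains T cells and microbes. Ifi202b encodes a DNA-binding protein of the PYHIN family that can dampen the AIM2 inflammasome, and its level is known to differ between inbred mouse strains. Serpina3g encodes Spi2A, an intracellular serpin that inhibits lysosomal cysteine proteases such as cathepsin B.

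Promoter sequence was taken from RefSeq on GRCm38.p6 for 2 of the 3 members, Ifi202b and Serpina3g. The promoter of Ido1 was not used here. The 250 bases before the RefSeq start are shown because both genes are known to be induced by interferon, with the GAS letters TTCNNNGAA in capitals. The first lies at chr1:173982845-173983094 on the minus strand and the second at chr12:104235897-104236146 on the plus strand, each printed 5′ to 3′.
Ifi202b: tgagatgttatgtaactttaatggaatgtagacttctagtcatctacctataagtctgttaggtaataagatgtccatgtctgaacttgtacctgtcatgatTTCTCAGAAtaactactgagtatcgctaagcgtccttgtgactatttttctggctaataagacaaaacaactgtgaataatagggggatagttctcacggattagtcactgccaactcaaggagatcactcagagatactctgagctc
Serpina3g: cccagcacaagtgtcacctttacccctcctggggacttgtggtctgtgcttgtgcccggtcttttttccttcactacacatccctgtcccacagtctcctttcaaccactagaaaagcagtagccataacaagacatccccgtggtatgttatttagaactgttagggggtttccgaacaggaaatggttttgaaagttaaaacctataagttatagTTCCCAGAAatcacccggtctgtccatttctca

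Each promoter held 1 match to TTCNNNGAA, a motif that reads the same on both strands. In Ifi202b it began 148 bases before the RefSeq start, and in Serpina3g 33 bases before it. Those starts, 173982844 and 104236147, lie upstream of the GENCODE gene starts given below, 173982744 and 104236245. Distances from the GENCODE starts are therefore longer. The motif was present in 7.02% of the 32851 promoter windows of the same length in the RefSeq table. The ISRE letters GAAANNGAAA, searched on both strands, had no match in either window and were present in 2.98% of all windows. Among the 43 windows of listed genes, 8 (18.6%) held the GAS letters and 8 (18.6%) held the ISRE letters. These matches are letters only, and binding was not measured. They are matches in the reference genome, and the sequence of the FVB mice was not examined.

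The Pumilio motif TGTANATA, which PUF proteins bind in messenger RNA, was searched on the sense strand of the GENCODE M21 transcripts. It was found in 0 of the 2 Ido1 transcripts, 0 of the 1 Ifi202b transcript and 0 of the 4 Serpina3g transcripts. In the longest coding transcript of each gene, it was present in 25.9% of 21901 coding genes. Among the 797 coding genes whose longest transcript was as long as those of the members, from 1656 to 1803 bases, it was present in 14.1%. Of the 50 listed genes with a coding transcript, 4 (8%) held it. That these letters were not found says nothing of whether Pum2 binds these transcripts.

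The table lists genes that the authors had called different between these same libraries, and every row has an adjusted p-value under 0.05 in the authors' column. The contrast between the genotypes therefore chose the members, and it is given here as a description, with no test. Values are the authors' normalized expression, whose method was not given in the sources used here. The total depth of each library is unknown. Pum2 itself was at 16.1 to 17.8 in the WT libraries and at 1.45 to 2.94 in the Pum2-/- libraries, so each library carried the level its label names. None of the 12 colon epithelial markers was in the table, so the tissue label could not be checked against them.

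All 3 members were higher in each Pum2-/- mouse than in any WT mouse. Of all 68 listed genes, 30 (44.1%) had every Pum2-/- value above every WT value, and 29 (42.6%) had every Pum2-/- value below every WT value. Those 30 were among the 34 listed genes with higher means, so a lack of overlap was common there. The table was already selected for this contrast. On the log2(value + 1) scale, the differences between group means were 4.03 for Ido1 (standard error 0.979, n = 3 a group), 2.84 for Serpina3g (standard error 0.718) and 1.75 for Ifi202b (standard error 0.469). The 34 listed genes with higher means had a median difference of 2.07 on the same scale, with a range of 1.50 to 4.03. Ido1 had the largest positive difference of the 68 genes, Serpina3g was at rank 8 and Ifi202b at rank 29. In whole tissue, a change in the number of cells of a type cannot be told apart from a change in RNA per cell.

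**Figure D1:**
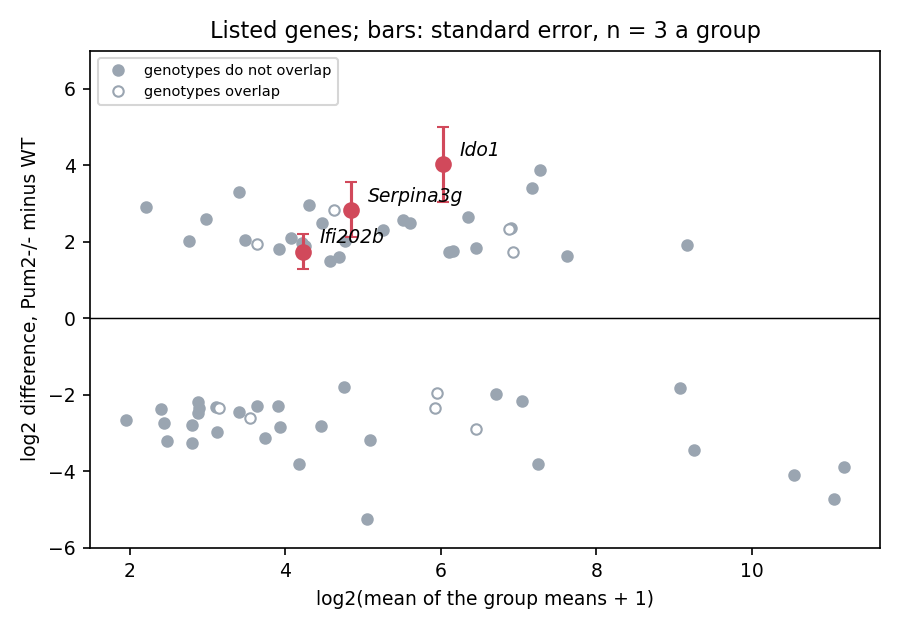
Each point is 1 of the 68 listed genes, with the log2 of the mean level plus 1 on the x axis and the log2 difference between Pum2-/- and WT mice on the y axis. Red points are the members with their standard error (n = 3 a group), with Ido1 highest at 4.03 and Ifi202b lowest of the 3 at 1.75, and open points are genes whose genotypes overlap.

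Ido1 (ENSMUSG00000031551) lies on chromosome 8 of GRCm38 from 24584136 to 24597009 on the minus strand, and its longest coding transcript has 10 exons. Its normalized expression was 3.67, 2.03 and 19.6 in WT replicates 1, 2 and 3, and 52.7, 155 and 152 in Pum2-/- replicates 1, 2 and 3. WT replicate 3 stood well above the other WT mice and Pum2-/- replicate 1 well below the other knockouts. The group means were 8.43 ± 9.70 (SD, n = 3) in WT and 119.8 ± 58.1 (SD, n = 3) in Pum2-/- mice, a 14.2-fold ratio. The lowest Pum2-/- value was still 2.69 times the highest WT value. Among WT mice Ido1 ranged over 9.65-fold, and among Pum2-/- mice over 2.94-fold. Ido1 was thus the member that differed most between mice of the same genotype, and WT replicate 3 moved its difference most, from 4.03 to 4.85 when that library was left out.

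Serpina3g (ENSMUSG00000041481) lies on chromosome 12 from 104236245 to 104241939 on the plus strand, with 5 exons in its longest coding transcript. It was at 14.2, 2.03 and 5.47 in WT replicates 1, 2 and 3, and at 66.5, 37.3 and 41.2 in Pum2-/- replicates 1, 2 and 3. In both genotypes replicate 1 was the highest, and the groups stayed apart by a ratio of 2.63 between the lowest Pum2-/- and the highest WT value. Serpina3g averaged 7.23 ± 6.27 in WT mice and 48.3 ± 15.9 in Pum2-/- mice (SD, n = 3), a 6.69-fold ratio. The Pum2-/- mice lay within 1.78-fold of one another, whereas the WT mice spread over 6.99-fold. Without WT replicate 1 the difference of Serpina3g rose to 3.43. Serpina3g shares its chromosome with the targeted gene, Pum2, at a distance of 95.5 Mb.

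Ifi202b (ENSMUSG00000026535) lies on chromosome 1 from 173962568 to 173982744 on the minus strand, with 7 exons. It was at 7.49, 5.05 and 9.24 in WT replicates 1, 2 and 3, and at 28.4, 14.9 and 41.6 in Pum2-/- replicates 1, 2 and 3. The WT values were the tightest of the 3 members, within 1.83-fold, and the Pum2-/- values spanned 2.79-fold. Ifi202b averaged 7.26 ± 2.10 in WT mice and 28.3 ± 13.3 in Pum2-/- mice (SD, n = 3), a 3.90-fold ratio. The nearest values of the genotypes were 1.62-fold apart, the narrowest gap of the 3 members.

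**Figure D2:**
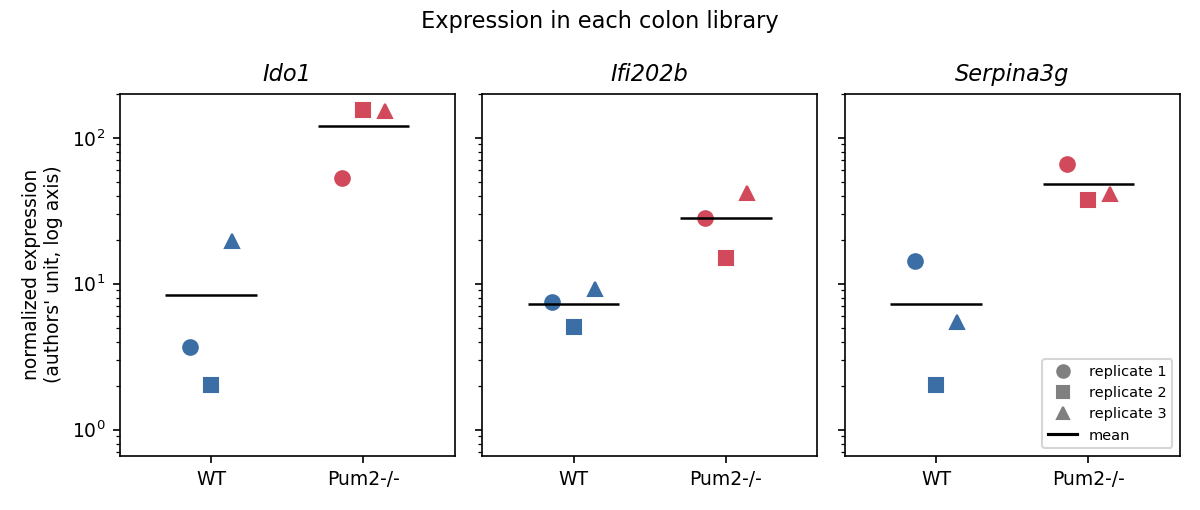
Normalized expression of each member (log axis, the authors' unit) in the 3 WT libraries (blue) and the 3 Pum2-/- libraries (red), with 1 symbol shape for each replicate number and the mean as a line. In each panel the lowest red point lies above the highest blue point, by 2.69-fold for Ido1, 1.62-fold for Ifi202b and 2.63-fold for Serpina3g.

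Low values carry few reads. In WT replicate 2, all 38 values between 0.5 and 20 lay within 0.08 of a whole multiple of a step of 1.01, and in Pum2-/- replicate 1, all 29 did so for a step of 0.979. The step was chosen for its fit, and in the other 4 libraries the share was 37.5% to 68.9%, so whole reads were not recovered for the series. In WT replicate 2, Ido1 and Serpina3g were each 2.01 steps high and Ifi202b 5.01 steps. The WT levels of Ido1 and Serpina3g in that library are thus close to the bottom of the scale, where counting error is large relative to the value.

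Per kilobase of the longest coding transcript, the 3 genes overlapped in WT mice, with 5.09 ± 5.86 for Ido1, 4.28 ± 1.24 for Ifi202b and 4.01 ± 3.48 for Serpina3g (SD, n = 3, normalized expression per kb). In Pum2-/- mice the order was Ido1 at 72.4 ± 35.1, Serpina3g at 26.8 ± 8.80 and Ifi202b at 16.7 ± 7.87 (SD, n = 3). Neighbours in that order overlapped between mice, since the lowest Ido1 level per kb, 31.8, was under the highest of Serpina3g, 36.9, and the lowest of Serpina3g, 20.7, was under the highest of Ifi202b, 24.5. Ido1 and Ifi202b did not overlap per kb. These levels assume that the authors' values were not already divided by length. The single step shared by genes in WT replicate 2 and Pum2-/- replicate 1 is what undivided values give. In the other libraries only 37.5% to 68.9% of low values lay near a step, so the assumption was not settled.

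A ratio of genes within 1 library does not depend on how that library was scaled. The log2 differences of the ratios below were taken from log2(value + 1), and the added 1 leaves them partly dependent on scaling. Ido1 over Ifi202b was 0.489, 0.402 and 2.12 in WT replicates 1, 2 and 3 and 1.86, 10.4 and 3.64 in Pum2-/- replicates 1, 2 and 3. The WT mice and the Pum2-/- mice overlapped in this ratio, because WT replicate 3 was above Pum2-/- replicate 1. Its log2 difference was 2.29 (standard error 0.956), which fell to 1.64 without Pum2-/- replicate 2 and rose to 2.93 without WT replicate 3. Ido1 over Serpina3g was 0.258, 1.00 and 3.58 in the WT replicates and 0.793, 4.16 and 3.68 in the Pum2-/- replicates, with a log2 difference of 1.19 (standard error 1.23). This ratio overlapped widely, and its difference went from 0.35 without WT replicate 1 to 2.04 without WT replicate 3, and was 1.95 without Pum2-/- replicate 1. Serpina3g over Ifi202b was 1.89, 0.402 and 0.592 in the WT replicates and 2.35, 2.50 and 0.990 in the Pum2-/- replicates, again with overlap. Its log2 difference was 1.09 (standard error 0.702). With a pseudocount of 0.1 the differences of the 3 ratios were 2.44, 1.23 and 1.21 in the same order. The order of the members by size of change was therefore not separated from the spread between mice.

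Ranks within a library are free of scaling too. Ido1 was at rank 58, 59 and 31 of the 68 listed genes in WT replicates 1, 2 and 3 and at rank 23, 8 and 10 in the Pum2-/- replicates, where rank 1 is the highest value. Serpina3g was at rank 33, 60 and 56 and then at 21, 25 and 24. Ifi202b was at rank 47, 53 and 46 and then at 30, 37 and 23. For each member the Pum2-/- ranks were all higher in the list than the WT ranks. The ranks are among genes selected for this contrast, 34 of them lower in Pum2-/- mice. A gene listed as higher tends to pass those genes, so the ranks are no separate evidence of a difference.

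Dividing each library by its median over the listed genes narrowed the differences to 3.12 for Ido1, 1.91 for Serpina3g and 0.80 for Ifi202b. That median was 12.6 to 20.8 in the WT libraries and 29.8 to 33.7 in the Pum2-/- libraries, and it is set by genes selected for the genotype contrast. Under this scaling Ido1 and Serpina3g still did not overlap, and Ifi202b did, at 11.3, 9.03 and 9.99 in WT replicates 1, 2 and 3 against 21.4, 10.1 and 27.8 in the Pum2-/- replicates. Scaling by the median of ratios gave 2.98, 1.77 and 0.65 and no overlap in any member. Over all listed genes, 30 were higher and 29 lower without overlap as deposited, 19 and 33 after the median scaling, and 20 and 33 after the median of ratios.

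**Figure D3:**
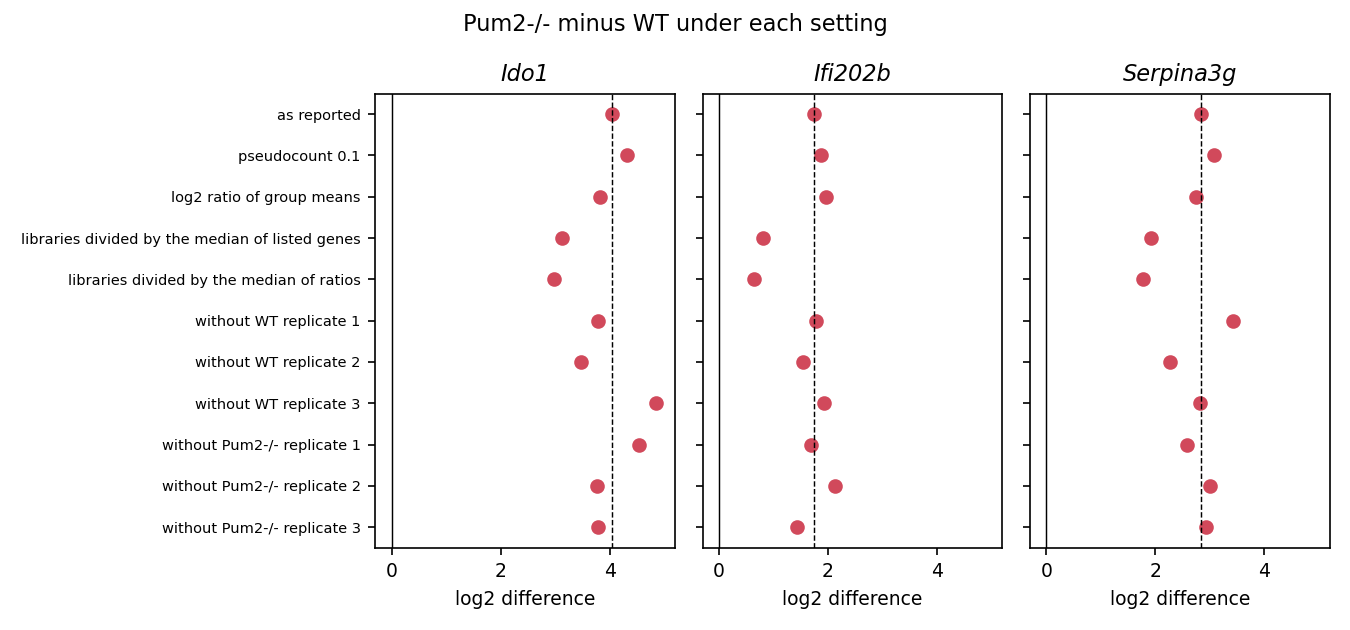
Log2 difference between Pum2-/- and WT mice (x axis) for each member under each setting (y axis), with the reported value as a dashed line and 0 as a solid line. All points are above 0, and the lowest are those of the 2 scalings, down to 0.65 for Ifi202b.

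Within a genotype, the members varied with each other weakly. After the genotype means were removed, Pearson's r over the 6 libraries was 0.29 for Ido1 and Ifi202b, -0.04 for Ido1 and Serpina3g and 0.36 for Ifi202b and Serpina3g. These values describe 6 libraries with 1 set of scaling factors and are given without a test. Without removing the means, r was 0.85, 0.80 and 0.86, and the difference between the genotypes that chose these genes enters those values.

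The listed genes most like each member were found by r of log2(value + 1) over the 6 libraries, in which the genotype difference takes part as well. For Ido1 they were Gzmb, the cytotoxic granule protease granzyme B (r = 0.988, and 0.94 after removing the genotype means), Fpr1, a receptor for formylated bacterial peptides (0.980 and 0.89), and Saa3, an acute-phase apolipoprotein (0.973 and 0.88). Gzmb was at 14.9, 11.1 and 50.9 in WT replicates 1, 2 and 3 and at 110, 161 and 136 in the Pum2-/- replicates. Like Ido1, it was highest in WT replicate 3 among the WT mice and lowest in Pum2-/- replicate 1 among the knockouts.

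For Ifi202b the most alike were the immunoproteasome subunits Psmb9 (r = 0.993, and 0.98 after removing the means) and Psmb8 (0.974 and 0.90), followed by the histone gene H2bc23 (0.944 and 0.74), which was listed at 0 in all WT libraries. Psmb9 was at 31.9, 23.2 and 33.1 in WT replicates 1, 2 and 3 and at 96.8, 65.7 and 155 in the Pum2-/- replicates. Both Ifi202b and Psmb9 were lowest in replicate 2 and highest in replicate 3 in each genotype. The median-of-ratios scaling factors had that order too, at 0.658, 0.433 and 0.869 in the WT replicates and 1.49, 1.21 and 1.63 in the Pum2-/- replicates. After that scaling Ifi202b was at 10.8, 11.1 and 10.1 in the WT replicates and at 18.0, 11.7 and 24.2 in the Pum2-/- replicates. The part of library scale in this likeness was not tested.

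For Serpina3g they were the immunoglobulin segment Ighv3-3 (r = 0.966, and 0.83 after removing the means), the guanylate-binding protein gene Gbp10 (0.953 and 0.74) and the monocyte chemokine gene Ccl12 (0.950 and 0.74). Gbp10 was at 8.46, 4.04 and 7.37 in the WT replicates and at 30.3, 33.9 and 21.5 in the Pum2-/- replicates. No gene was among the 3 most alike for more than 1 member.

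**Figure D4:**
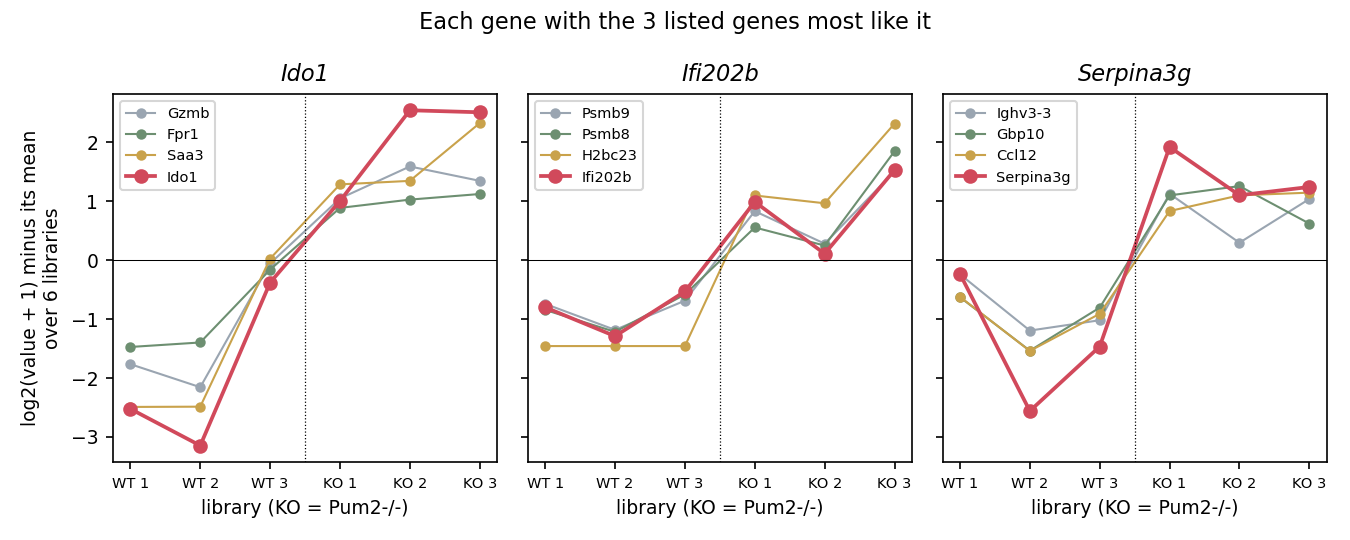
Log2(value + 1) minus its mean over the 6 libraries (y axis) in each library (x axis) for each member (red) and the 3 listed genes most like it. Ido1 is high in WT replicate 3 and low in Pum2-/- replicate 1 for its genotype, as Gzmb is, while Ifi202b follows Psmb9 and Psmb8 (r = 0.993 and 0.974).

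Around these genes, 144 genes on 9 lists were looked up. The lists covered interferon signalling, interferon-induced genes, the members' own families, and cathepsins and granzymes. Of the 144 genes, 21 were in the table. The 18 that are not members all had higher means in Pum2-/- mice, 17 of them without overlap. Among the 34 listed genes with higher means, 30 did not overlap (44.1% of all 68), a similar share. After the median scaling 10 of the 18 were higher without overlap, and after the median of ratios 12. Over all 68 genes, which include those lower in Pum2-/- mice, 19 and 20 were. These lists were chosen with earlier results of these data known, and the table was selected on the same contrast, so the counts are descriptions. As deposited, the 17 comprised 7 of 22 interferon-induced GTPase genes (median log2 difference 2.03), 5 of 9 chemokine genes (2.05), 3 of 19 antigen-processing genes and, among 12 cathepsins and granzymes, Gzma (2.32) and Gzmb (2.65). The exception was Ubd, a ubiquitin-like protein induced by interferon, whose genotypes overlapped. None of the 20 interferon ligand, receptor and signalling genes and none of the 20 antiviral genes typical of type I interferon was in the table, and their levels were not analysed here.

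Of the lists of the members' own families, the table held the members alone. Ido1 was 1 of 16 genes of tryptophan breakdown and transport, Ifi202b 1 of 15 PYHIN genes and Serpina3g 1 of 11 serpin A3 genes. The serpin A3 genes lie side by side and are similar in sequence. Of the 1754 windows of 50 bases in the longest Serpina3g transcript, 16.0% were found in transcripts of other genes, most often Serpina3h, and of windows of 100 bases 4.64% were. For Ido1 and Ifi202b, 0% of the windows were found elsewhere. The level of Serpina3g is therefore partly uncertain, depending on how reads shared with its paralogs were counted.

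The listed genes were partly clustered in the genome, and of the 51 outside the immunoglobulin genes, 18 had another listed gene within 1 Mb. The nearest listed genes were 3.39 Mb from Ido1 and 9.03 Mb from Serpina3g.

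Of 8 cell type marker lists, 2 had genes in the table. For cytotoxic lymphocytes, 3 of 12 markers were listed, Gzma, Gzmb and Nkg7, all higher in Pum2-/- mice without overlap, and their summed level was 25.1 to 83.4 in WT and 152 to 291 in Pum2-/- libraries. For Paneth cells, Defa30 was 1 of 6 markers in the table, at 13.0 to 48.4 in WT and 0 to 6.89 in Pum2-/- libraries. The defining T cell markers, such as Cd3e and Cd8a, and the listed macrophage, dendritic, B and plasma cell, endothelial and fibroblast markers were not in the table and were not analysed here. The table did hold 17 immunoglobulin genes, products of B and plasma cells that were not on the marker list, of which 5 were higher and 9 lower in Pum2-/- mice without overlap. Their summed level was 6869 to 21378 in WT and 1164 to 2660 in Pum2-/- libraries, lower in each Pum2-/- library under both scalings too. The part of these cells in the levels of Ido1, Ifi202b and Serpina3g was not tested.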

How the data were processed

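Total RNA from colon, extracted with Trizol, was made into libraries using a SMARTER kit. The authors deposited a normalized expression signal for each gene and library. Beside it, the authors deposited their own log2 fold changes, which were not used. The authors also deposited p-values and adjusted p-values, used here only to see that all 69 rows were under 0.05. Aligner, counting, genome build, normalization and test are not given in the sources used here, and depth is unknown. A pair of rows with 1 Ensembl identifier was counted once, and values under 1e-09 were set to 0. Genotypes were compared by the difference of mean log2(value + 1), which understates changes of low values, with its standard error. No test was run, since the rows were selected on these libraries. The members and lists were chosen with earlier results of these data known. Other genes were named where they were on those lists or were among the 3 most like a member by r of log2(value + 1). Results on some items are not reported here. Scripts were tested on simulated data. Positions are from GENCODE M21 on GRCm38, matched by identifier for 68 of 68 genes, and promoters from RefSeq (GRCm38.p6). Python 3.11.15, numpy 2.4.6, pandas 2.3.3 and matplotlib 3.10.9 were used. Other settings were a pseudocount of 0.1, the ratio of group means, scaling by the median or by the median of ratios, keeping genes with a mean of at least 1, leaving immunoglobulin genes out, adding a replicate block, and omitting each library in turn.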

Additional observations from a re-analysis of the deposited data

How the results depend on the processing

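The direction of Ido1, Ifi202b, Serpina3g and Pum2 was the same under each alternative. The scalings by the median of listed genes and by the median of ratios moved values by more than 1 SD, to 0.80 and 0.65 for Ifi202b, to 1.91 and 1.77 for Serpina3g, and to -3.26 and -3.38 for Pum2, from -2.44. For Pum2 the pseudocount of 0.1 gave -2.84 and the ratio of means -2.84. Without overlap and higher were 19 genes after the median scaling, against 30, and 2 members, against 3. The cause was not tested. Leaving out each library, the log2 difference ranged from 3.47 to 4.85 for Ido1, 1.42 to 2.13 for Ifi202b, 2.27 to 3.43 for Serpina3g and -2.57 to -2.23 for Pum2. The number of members without overlap was 3 each time, of higher genes 30 to 32 and of lower genes 29 to 31, and fewer libraries make overlap rarer. The within-library ratio differences, from log2(value + 1), ranged from 1.64 to 2.93 for Ido1 over Ifi202b. They ranged from 0.35 to 2.04 for Ido1 over Serpina3g and from 0.73 to 1.65 for Serpina3g over Ifi202b. Same-numbered libraries of the 2 genotypes had correlated deviations of 0.106, 0.0415 and 0.265 over 68 genes. Differently numbered ones had -0.230 to 0.125, so 0.106 and 0.0415 lay within that range and 0.265 above it. These values do not settle whether the libraries were paired. With the replicate block the differences were 4.03 for Ido1, 1.75 for Ifi202b and 2.84 for Serpina3g, equal by construction in this balanced design. Depth is unknown, so counting error of low WT values was not estimated.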
